A study of Homo sapiens with 6 samples.

Results

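KCNT1, MCF2L, SEPTIN9 and KIF1A were among the genes with the most DNA newly covered by H3K9me2 after depletion of KDM3A and KDM3B in HCT116 cells. They were chosen by the H3K9me2 lists themselves, as genes whose windows of 5 kb on either side of every annotated transcription start site (TSS) held the most bases covered in depleted cells and not in control cells. They are 4 of 64486 annotated genes. The values that chose them were 39874 new bases at KCNT1, 38216 at MCF2L, 31700 at SEPTIN9 and 29551 at KIF1A. KIF1A lay just inside the limit and TBCD, with 28553 new bases, just outside it. Since the choice used H3K9me2 in these same lists, the H3K9me2 values below describe how the mark was laid out over the 4 genes and are no evidence of its gain.

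The cells were of HCT116, an established line from a human colorectal tumour. By the paper, the control cells carried a scramble shRNA (HCT116/Scrsh). The depleted cells carried an shRNA against both demethylases, KDM3A and KDM3B (HCT116/ABsh-1). The sample labels instead describe siRNA with the RNAiMAX reagent, so labels and paper differ on the treatment. The names of the paper are used below for the 2 populations. Each population gave 1 library per antibody (KDM3B and H3K9me2) and 1 of input DNA, 6 in all. There were thus no replicates, so values stand side by side and no test between the populations was made. In ChIP-seq, DNA bound by the target of an antibody is sequenced, and the authors called regions with more ChIP than input reads in windows of 100 bp. The deposited lists carry positions and a score but no read numbers. The depth behind each region is therefore unknown, and it may differ between libraries and so move the number of regions called. The KDM3B list fell from 17638 regions in HCT116/Scrsh to 8046 in HCT116/ABsh-1, and the H3K9me2 list went from 11645 to 88855. RNA was not measured here, so nothing below speaks of the expression of the 4 genes.

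H3K9me2 is the dimethyl form of lysine 9 on histone H3 and is found on silent genes and at repressed chromatin. KDM3A and KDM3B are demethylases that remove it. KCNT1 is a potassium channel opened by internal sodium and known mainly from neurons. MCF2L is a guanine nucleotide exchange factor. SEPTIN9 is a septin, a GTP-binding protein that assembles into filaments, and methylation of its DNA is a known marker of colorectal cancer. KIF1A is a kinesin motor that carries precursors of synaptic vesicles along axons.

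The DNA under the called regions is shown as the centre of the highest-scoring H3K9me2 region of HCT116/ABsh-1 in each gene body that held no untranslated exon, followed by the KDM3B region of HCT116/Scrsh nearest to the TSS of the canonical transcript. Sequences are the hg19 reference, plus strand, at most 300 bases each, with every CpG in capitals. They let the base composition discussed below be seen directly.
KCNT1, H3K9me2, chr9:138663101-138663400: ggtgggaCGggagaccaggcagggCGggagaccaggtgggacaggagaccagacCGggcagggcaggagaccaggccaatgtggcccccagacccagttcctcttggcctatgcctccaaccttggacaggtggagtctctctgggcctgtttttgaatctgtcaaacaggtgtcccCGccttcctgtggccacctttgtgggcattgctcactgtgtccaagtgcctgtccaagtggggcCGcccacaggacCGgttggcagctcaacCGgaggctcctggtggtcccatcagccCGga
MCF2L, H3K9me2, chr13:113549601-113549900: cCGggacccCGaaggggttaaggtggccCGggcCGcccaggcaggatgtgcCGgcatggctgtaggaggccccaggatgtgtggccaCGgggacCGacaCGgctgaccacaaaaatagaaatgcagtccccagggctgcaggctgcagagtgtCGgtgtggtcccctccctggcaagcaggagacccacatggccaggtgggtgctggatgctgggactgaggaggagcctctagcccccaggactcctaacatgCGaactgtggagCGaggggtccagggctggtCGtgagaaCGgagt
SEPTIN9, H3K9me2, chr17:75370201-75370500: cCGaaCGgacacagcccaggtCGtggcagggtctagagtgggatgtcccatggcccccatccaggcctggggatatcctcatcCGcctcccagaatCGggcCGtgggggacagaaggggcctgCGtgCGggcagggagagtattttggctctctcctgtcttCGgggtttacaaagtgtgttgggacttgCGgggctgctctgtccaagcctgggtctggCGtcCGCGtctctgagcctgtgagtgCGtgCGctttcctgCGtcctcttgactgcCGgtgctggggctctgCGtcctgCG
KIF1A, H3K9me2, chr2:241723401-241723700: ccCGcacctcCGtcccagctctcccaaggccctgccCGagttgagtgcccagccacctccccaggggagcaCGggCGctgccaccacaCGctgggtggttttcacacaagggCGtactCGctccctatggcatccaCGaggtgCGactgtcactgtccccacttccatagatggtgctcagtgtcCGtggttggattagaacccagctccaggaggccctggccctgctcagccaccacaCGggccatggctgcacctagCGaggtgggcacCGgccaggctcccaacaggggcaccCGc
MCF2L, KDM3B, chr13:113597201-113597300: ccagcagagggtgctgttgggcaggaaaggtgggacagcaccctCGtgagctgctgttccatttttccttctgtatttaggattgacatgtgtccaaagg
SEPTIN9, KDM3B, chr17:75278001-75278100: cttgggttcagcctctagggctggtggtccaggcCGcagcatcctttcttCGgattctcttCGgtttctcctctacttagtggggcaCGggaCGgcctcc
The H3K9me2 stretches of KCNT1 and KIF1A lie in introns, that of MCF2L lies in the intron before the canonical TSS, and that of SEPTIN9 is centred in an exon of a non-coding transcript. Their GC content was 63.7% at KCNT1, 65.3% at MCF2L, 64.3% at SEPTIN9 and 66.7% at KIF1A, with 8, 13, 19 and 15 CpGs in 300 bases. The KDM3B stretches held 52.0% GC with 1 CpG at MCF2L and 60% GC with 5 CpGs at SEPTIN9, each in 100 bases. No KDM3B region lay at KCNT1 or KIF1A, so none is shown for them.

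The 4 genes are long, rich in GC and annotated with many transcripts (GENCODE release 44, hg19). KCNT1 lies on the plus strand of chromosome 9 (138594031 to 138687354), with a body of 93324 bp, 32 transcripts and 30 distinct TSSs. MCF2L, on the plus strand of chromosome 13 (113548692 to 113754056), spans 205365 bp with 33 transcripts and 31 TSSs. SEPTIN9, on the plus strand of chromosome 17 (75276651 to 75496678), spans 220028 bp with 48 transcripts and 46 TSSs. KIF1A is read from the minus strand of chromosome 2 (241653178 to 241763710) and spans 110533 bp with 52 transcripts and 42 TSSs. The median protein-coding gene had 5 distinct TSSs and a body of 27217 bp, so the 4 genes offered far more sequence to the rule that chose them. Their joined TSS windows held 79958 bp at KCNT1, 120412 at MCF2L, 136652 at SEPTIN9 and 96987 at KIF1A, against a median of 19320. The GC content of the body was 61.6% at KCNT1, 54.4% at MCF2L, 54.8% at SEPTIN9 and 58.4% at KIF1A, all above the median of 45.3% over 20144 protein-coding genes.

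In HCT116/ABsh-1, H3K9me2 covered each locus, defined as the gene body with 20 kb on either side, in many short regions. KCNT1 held 78 regions over 58000 bases, 43.5% of its locus. MCF2L held 123 regions over 56700 bases, 23.1% of its locus. KIF1A held 80 regions over 34500 bases, or 22.9%, and SEPTIN9 held 111 regions over 42500 bases, or 16.3%. KCNT1 therefore had the highest share of covered bases and SEPTIN9 the lowest, although SEPTIN9 is the longest of the 4. All 4 genes held an H3K9me2 region of HCT116/ABsh-1, as did 69.7% of protein-coding genes, and since this list took part in the choice nothing is read from that count.

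In HCT116/Scrsh the same 4 loci held 14 H3K9me2 regions over 2100 bases in all, against 392 regions over 191700 bases in HCT116/ABsh-1. New bases made up 24.0% of the 4 loci together, 15.3% with equal numbers of H3K9me2 regions taken from both lists by score, and 40.8% when regions under 1 kb apart were joined. KCNT1 held 6 control regions, KIF1A held 5 and MCF2L held 3, those of MCF2L all downstream of the gene. SEPTIN9 held none. So 3 of the 4 genes had a control region in their locus, where 27.7% of protein-coding genes did, a count that also rests on the lists used for the choice. The control regions were 100 or 200 bp wide with scores from 9 to 29, on a scale that reached 377 in that list.

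The few control regions mostly lay inside the regions of depleted cells. Of the 14, 12 were wholly within an H3K9me2 region of HCT116/ABsh-1. The 2 that were not touched both lay in introns of KCNT1, 400 bp and 1000 bp from the nearest region of HCT116/ABsh-1. Over the whole control list, 3627 of 11645 regions lay wholly within a region of HCT116/ABsh-1, and 4119, or 35.4%, were touched by one. The larger share at the 4 loci goes with the larger share of their bases covered in HCT116/ABsh-1 and was not tested.

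H3K9me2 regions at the 4 loci were wider than those of the list as a whole. Their median width was 400 bp at KCNT1 and 300 bp at each of MCF2L, SEPTIN9 and KIF1A, against 200 bp over the list. Regions of a single 100-bp window made up 19.2% of regions at KCNT1, 20.3% at MCF2L, 31.2% at KIF1A and 33.3% at SEPTIN9, against 41.3% over the list. Wide regions add more bases, so this too bears on what the genes were chosen for. The score rises with width, from a median of 15 for regions of 100 bp to 86 for those of 500 bp in HCT116/ABsh-1.

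The widest regions lay at KCNT1. There, 2 regions of HCT116/ABsh-1 were 4900 bp wide, and the list as a whole reached 7100 bp. The region from 138634101 to 138639000 lay in intron 2 of the canonical transcript, had a score of 1004 and held 177 CpGs at 65.4% GC. The region from 138660801 to 138665700 ran across exons 16 to 19, had a score of 800 and held 207 CpGs at 66.0% GC. It shared no base with HCT116/Scrsh, whereas the former shared 100 bases. At KIF1A the widest region, 3100 bp from 241722001 to 241725100, ran across exons 7 to 10 and held the highest-scoring control region of that locus, 200 bp wide with a score of 29. In the bodies of MCF2L and SEPTIN9 the widest regions were 1800 and 1600 bp and touched no exon of the canonical transcript.

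The layout along the body differed between the genes. At KCNT1 each of 10 equal parts of the body was covered to between 29.2% and 68.6%. At KIF1A cover ranged from 1.81% in the part numbered 2 from the 5′ end to 50.9% in the part at the 3′ end. At SEPTIN9 the part at the 5′ end was the least covered, with 2.27%, and the part numbered 5 the most, with 36.8%. At MCF2L the part numbered 3, before the canonical TSS, had 4.87% and the part numbered 5 had 41.6%. The most and least covered parts of KCNT1 thus differed by less than those of the other genes in relation to their own levels.

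Each gene also held a stretch without any H3K9me2 region. The longest gap between regions in the body was 4500 bp at KCNT1, 14100 bp at MCF2L, 21200 bp at SEPTIN9 and 12600 bp at KIF1A. That of KIF1A lay in intron 1, which covers 22309 bp of the canonical transcript and was covered to 8.83%. That of SEPTIN9, from 75326501 to 75347700, lay in intron 2 and held a KDM3B region of HCT116/Scrsh, and that of MCF2L lay before the canonical TSS and held another. Most gaps were short, with medians from 600 to 900 bp. When regions under 1 kb apart were joined, the longest blocks spanned 12700 bp at KCNT1, 11800 at KIF1A, 11200 at SEPTIN9 and 7200 at MCF2L.

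Cover did not end at the gene. Upstream of KCNT1, 20 kb were covered to 52.0%, more than the 47.8% of its body, and the 20 kb downstream to 15%. MCF2L had 23% upstream, close to the 23.8% of its body, and 16.5% downstream. SEPTIN9 had 5.00% upstream and 10.0% downstream, and KIF1A had 4% upstream and 6% downstream against 29.4% in its body. The flanks of KIF1A were thus much less covered than the gene, whereas at MCF2L the upstream flank was close to the gene.

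Of the protein-coding neighbours that reach into these flanks, SOHLH1, a transcription factor gene of germ cells, was covered most. It overlaps the 5′ end of KCNT1 from the other strand, and 72.1% of its 11092 bp were covered in HCT116/ABsh-1, so cover there belongs to both genes. F7, which encodes coagulation factor VII, was covered to 18.1% next to MCF2L, and ATP11A, a phospholipid flippase gene on its other side, to 6.54%. CAMSAP1, whose product binds the minus ends of microtubules, was covered to 2.83% next to KCNT1. AQP12A, an aquaporin gene next to KIF1A, had no covered base. No other protein-coding gene reached into the flanks of SEPTIN9.

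Farther out, within 1 Mb on either side of each locus, cover by H3K9me2 in HCT116/ABsh-1 was lower than in the locus. It was 17.1% around KCNT1, 9.60% around SEPTIN9, 7.99% around KIF1A and 5.71% around MCF2L. The surroundings of all 4 genes were also covered in HCT116/Scrsh, to between 0.0900% and 0.290%. A rule that takes the most bases picks loci above their surroundings, so the step from surroundings to locus is a description.

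Over the whole body, exons were covered more than introns in all 4 genes, and coding exons most. At MCF2L in HCT116/ABsh-1 the introns included those before the canonical TSS, which were covered to 11.9%. Its first intron had 32.1% and its other introns after that TSS 29.2%. Its exons had 28.1% over the whole body. Exons before and after that TSS were not separated, so the exon value and those of the introns after it cover unlike stretches. Untranslated exons of KCNT1 had 34.8%, less than the 46.8% of its introns. Over the 4 bodies together, 55.8% of coding exon bases, 32.8% of untranslated exon bases and 36.1% of the bases of other exons were covered in HCT116/ABsh-1. Introns were covered to 24.6% in all. All exons together exceeded introns by 15.2 percentage points. The excess was 23.7 when only exons of the canonical transcript counted as exons and every other base of the body as intron. Coding exons reached 63.5% at KIF1A, 61.9% at KCNT1, 55% at SEPTIN9 and 42.2% at MCF2L. Introns had 46.8% at KCNT1, 25.8% at KIF1A, 23.2% at MCF2L and 16.9% at SEPTIN9, so coding exons and introns lay furthest apart at SEPTIN9 and KIF1A. In HCT116/Scrsh, 5 exon bases were covered in the 4 genes together, all at KCNT1.

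The first intron of the canonical transcript, with exon bases of other transcripts left out, separated the genes. It was covered to 42.2% at KCNT1 and 32.1% at MCF2L, but to 7.69% at KIF1A and 4.5% at SEPTIN9. Its GC content was 59.0% and 56.8% in the former and 49.8% and 53.1% in the latter, so the 2 genes with more cover there had more GC, but SEPTIN9 had more GC than KIF1A and less cover. The part of GC was not tested. Introns that precede the canonical TSS were covered to 11.9% at MCF2L with 50.7% GC, to 1.58% at KIF1A with 51.6% GC, and not at all over 630 bp with 78.4% GC at SEPTIN9.

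In the canonical transcript, 37 of 49 exons of KIF1A were touched by H3K9me2 in HCT116/ABsh-1 and 23 lay wholly within regions. KCNT1 had 21 of 31 exons touched and 13 wholly covered, MCF2L 17 of 30 and 11, and SEPTIN9 8 of 12 and 6. Exon 3 of SEPTIN9, 645 bp long, was wholly covered, and its last exon, 2071 bp long, to 19.3%. Exon 1 was free of H3K9me2 at MCF2L, SEPTIN9 and KIF1A and was covered to 62% at KCNT1. At KCNT1 the uncovered exons included 6 to 9, which follow each other.

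Exons are richer in GC than introns, so the comparison was repeated within windows of like GC, a choice made after the values were seen. Among 100-bp windows of 60 to 70% GC in the 4 bodies, 65.5% of 87 windows with at least 50 coding bases were covered (Wilson 95% confidence interval 55.1 to 74.7%). Of 1967 windows of the same GC without an exon base, 40.7% were covered (38.6 to 42.9%). At 50 to 60% GC the shares were 46.0% of 50 windows (33.0 to 59.6%) and 15.4% of 1850 windows (13.8 to 17.1%). The shares rest on the H3K9me2 cover that chose the genes, and the rule counted bases around annotated TSSs, which lie in exons, so nothing is read from their difference. By gene, at 60 to 70% GC, coding and non-exonic windows had 70% and 58.9% at KCNT1, 64.7% and 40.4% at MCF2L, 77.8% and 33.5% at SEPTIN9, and 61.0% and 34.0% at KIF1A. The intervals cover counting error only, and neighbouring windows of 1 library are not independent.

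The canonical TSS of 3 of the 4 genes had no H3K9me2 region of HCT116/ABsh-1 within 1 kb. Of all distinct TSSs of protein-coding genes, canonical or not, 21.5% had a region of HCT116/ABsh-1 within 1 kb. Most start sites were thus free of it, and nothing is read from the count of 3. No base within 1 kb was covered in HCT116/ABsh-1 at MCF2L, SEPTIN9 or KIF1A, and the nearest regions lay 3828, 1420 and 1065 bp away. At KCNT1 the nearest region lay 70 bp away and 1301 bases within 1 kb were covered. Within 5 kb of the canonical TSS, 6800 bases were covered at KCNT1, 1500 at KIF1A, 428 at MCF2L and 100 at SEPTIN9. The 4 TSSs were all rich in GC and CpG, with 69.6% GC at KCNT1, 66.6% at MCF2L, 74.1% at SEPTIN9 and 76.6% at KIF1A in the 1001 bp centred on them. CpGs there numbered 86, 93, 104 and 132, or 0.709, 0.843, 0.758 and 0.902 of what the C and G content would give by itself. So the DNA at these start sites was richer in GC than the covered windows of the loci, and at 3 of the 4 it was uncovered.

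Other annotated TSSs inside the genes made up most of what the rule counted. Of 149 distinct TSSs, 55 lay within an H3K9me2 region of HCT116/ABsh-1 (36.9%) and 133 had one within 1 kb (89.3%). For all 146186 distinct TSSs of protein-coding genes the shares were 4.69% and 21.5%, and as the genes were chosen by their TSS windows nothing is read from the difference. TSSs within a region numbered 11 of 30 at KCNT1, 10 of 31 at MCF2L, 16 of 46 at SEPTIN9 and 18 of 42 at KIF1A. In HCT116/Scrsh, 20 of the 149 had a region within 5 kb, 6 at KCNT1 and 14 at KIF1A. The like share over all TSSs of protein-coding genes was not counted for HCT116/Scrsh, so nothing is read from this count.

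The TSSs of a gene fell in groups with unlike cover, many of them sharing the same DNA. At SEPTIN9 the 4 TSSs from -930 bp to the canonical one itself had 100 to 300 covered bases within 5 kb. A group of 6 TSSs between 172326 and 174867 bp downstream had 4900 to 5462 covered bases, and that group includes the highest value of the gene. At MCF2L the 4 TSSs from -714 to 182 bp of the canonical one had 428 to 500 bases. The TSS at the very 5′ end of MCF2L, at -74836 bp, had 5301 bases, the highest of the gene. At KIF1A, 15 TSSs lay from -4074 to 1253 bp of the canonical one and had 100 to 1500 bases. The TSSs of KIF1A from 37612 to 39559 bp downstream had 5277 to 5377. At KCNT1 no TSS had fewer than 2440 bases, and the highest value, 7235, was at the TSS nearest to the 3′ end.

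KDM3B, which took no part in the choice of the genes, was called at 2 of the 4 loci. In HCT116/Scrsh it covered 1.19% of the SEPTIN9 locus, against 0.4% within 1 Mb on either side of it. At MCF2L the values were 0.163% and 0.115%. No base of the KCNT1 and KIF1A loci was covered, against 0.295% and 0.125% around them. The list of HCT116/Scrsh had 12 regions over 3100 bases at SEPTIN9 and 3 regions over 400 bases at MCF2L, and none at KCNT1 or KIF1A. Thus 2 of the 4 genes had a KDM3B region of HCT116/Scrsh in their locus, where 61.4% of protein-coding genes did. After depletion there were 5 regions over 900 bases at SEPTIN9 and 1 over 300 bases at MCF2L, again 2 of the 4 genes, where 39.5% of protein-coding genes had one. With 4 genes neither count can be told from these shares. The fall from 15 to 6 regions goes with the fall of the whole KDM3B list from 17638 to 8046, and depth was not given for either library. With the same number of KDM3B regions taken from each list by score, the loci held 7 in control cells and 6 in depleted cells.

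At SEPTIN9 the KDM3B regions of HCT116/Scrsh crowded behind the canonical TSS. There, 5 of the 12 were centred 469, 1869, 4669, 5569 and 6269 bp downstream of it, in the first intron, with widths from 100 to 700 bp and scores of 8, 8, 131, 51 and 50. None of these 5 was in the list of HCT116/ABsh-1, in which the nearest KDM3B region lay at least 34600 bp away. The highest score of the locus, 192, belonged to a region of 500 bp from 75491001 to 75491500 in a more distant intron, and it overlapped a region of HCT116/ABsh-1 with a score of 91. The stretch at 75327501 to 75327800, with a score of 105, was not called in HCT116/ABsh-1, but regions of HCT116/ABsh-1 abutted it on both sides.

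At MCF2L the KDM3B region from 113597201 to 113597300 lay in an intron before the canonical TSS. It lay within a wider region of HCT116/ABsh-1, 300 bp with a score of 45 against 25 in HCT116/Scrsh, and scores of different lists may not be on the same scale. The other 2 lay 11200 and 56600 bp from the nearest KDM3B region of HCT116/ABsh-1. Among the 15 control regions of KDM3B at these loci, 2 overlapped one of HCT116/ABsh-1 and 2 more abutted one. How often control regions of the whole KDM3B list overlapped one of HCT116/ABsh-1 was not counted. Nothing is therefore read from these counts, those at SEPTIN9 included.

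No KDM3B region overlapped H3K9me2 of HCT116/ABsh-1 at these loci, as was so for nearly all KDM3B regions of the whole lists. Among the 15 control regions of KDM3B, none overlapped H3K9me2 of depleted cells, and the distance to the nearest ranged from 0 bp, where the regions abutted, to 2600 bp with a median of 1000 bp. None of the 6 KDM3B regions of HCT116/ABsh-1 overlapped one either. Over the whole lists the overlap was 94 of 17638 regions, or 0.533%, and 95 of 8046, or 1.18%, beside which 15 and 6 regions are too few to show a difference. The 5 KDM3B regions behind the SEPTIN9 start lay 300 to 1700 bp from H3K9me2, in an intron where 4.5% of bases were covered. At KCNT1, with the highest share of covered bases, the nearest KDM3B region of HCT116/Scrsh to the canonical TSS lay 98031 bp away.

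Within each locus the covered DNA was richer in GC. Windows of 100 bp with H3K9me2 in HCT116/ABsh-1 had a GC content of 62.9% ± 6.63 (SD, n = 1917 windows), and windows without it 53.5% ± 11 (SD, n = 5976 windows). The means were 64.1% and 56.9% at KCNT1, 62% and 52.7% at MCF2L, 61.5% and 52.2% at SEPTIN9, and 63.8% and 55% at KIF1A. CpG numbered 3.61 per 100 bp in covered windows and 2.38 in the others over the 4 loci. Windows are neighbours in 1 library, so these spreads describe the DNA and are not replicate error.

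Cover rose with GC in each gene. Over the 4 loci, 1.74% of windows under 40% GC were covered (Wilson 95% interval 1.02 to 2.96%), then 5.38% at 40 to 50%, 15.9% at 50 to 60%, 41.4% at 60 to 70% and 49.6% at 70% and over (45 to 54.1%). KCNT1 had the highest share in each range from 40% GC up. At 60 to 70% GC, 57.8% of its windows were covered (54.0 to 61.4%), against 39.9% at MCF2L (36.6 to 43.3%), 35.2% at KIF1A (31.6 to 39.0%) and 33.7% at SEPTIN9 (30.4 to 37.1%). These intervals cover counting error only, over neighbouring windows of 1 library. As KCNT1 had the most new bases of the 4 by the measure that chose them, its place above the others is a description.

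**Figure D1:**
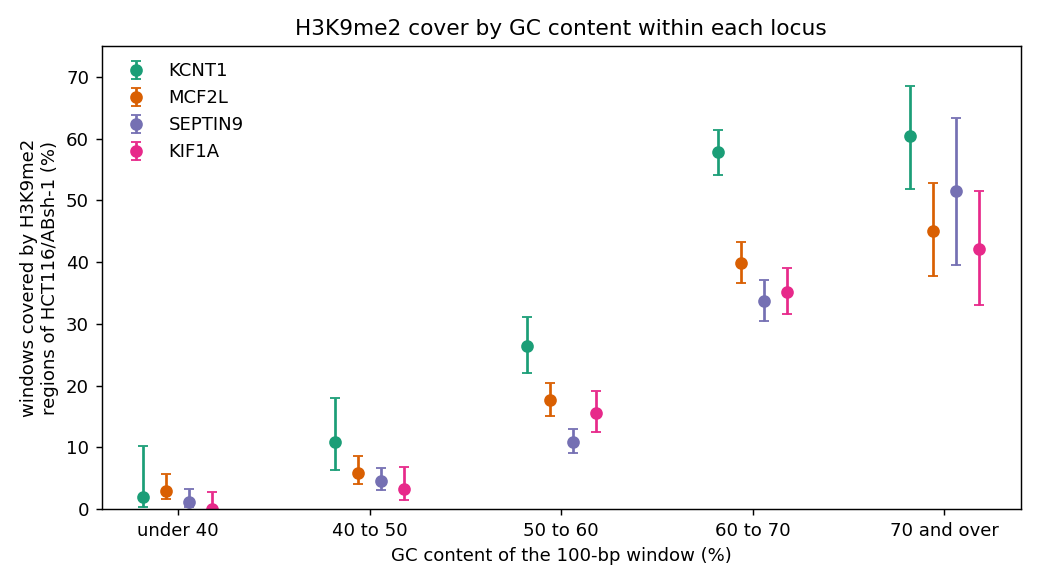
Percent of 100-bp windows of each locus covered by H3K9me2 regions of HCT116/ABsh-1, by the GC content of the window, with Wilson 95% intervals (counting error only). Cover goes from at most 3.03% of windows under 40% GC to between 42.1% and 60.5% at 70% and over, and KCNT1 is highest at 50 to 60% and 60 to 70%.

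Short sequence words that recur nearby, as in tandem repeats, were less frequent in covered windows. Bases in 12-letter words found again within 500 bp made up 3.67% of covered windows and 9.48% of the others. Of 504 windows made up of such words for at least 50%, 10.3% were covered, against 26.9% of 6478 windows with under 10%. At KCNT1, 17.6% of 85 such windows were covered, against 46.9% of its windows with under 10%. At SEPTIN9 the shares were closer, with 11.9% of 84 windows against 18.6%. The authors kept only uniquely placed reads, and whether this lowered the calling of regions in repeated DNA was not tested.

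Among all protein-coding genes the 4 stood high by new bases and less high by share. Over the gene body without flanks, 44200 bases at KCNT1, 48800 at MCF2L, 39500 at SEPTIN9 and 31800 at KIF1A were covered in HCT116/ABsh-1 and not in HCT116/Scrsh. These placed the genes 22, 16, 28 and 41 among 20144. As a share of the body the values were 47.4%, 23.8%, 18.0% and 28.8%, which ranked 208, 860, 1296 and 630. The share at SEPTIN9 was below the 95th percentile of all protein-coding genes, 21.5%. The median gene had 0.0465% and 48.9% of genes had no new base.

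The share of the body rose with its GC content over all genes. New bases made up 0.0713% of the bodies of genes under 40% GC, 1.87% at 45 to 50%, 6.30% at 50 to 55%, 14.5% at 55 to 60% and 25.4% at 60% and over. Each of the 4 genes lay above the figure for its own range, with 47.4% against 25.4% at KCNT1, 28.8% against 14.5% at KIF1A, and 23.8% at MCF2L and 18.0% at SEPTIN9 against 6.30%. As they were picked for high cover, their place above genes of like GC is a description.

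Most relatives of the 4 genes had little new cover. Of 21 relatives, namely KCNT2, MCF2, MCF2L2, 12 septins and 6 kinesins, 18 had an H3K9me2 region of HCT116/ABsh-1 in their locus, and 10 had one of HCT116/Scrsh. For all protein-coding genes these shares were 69.7% and 27.7%, and the relatives were listed by gene family. New bases made up a median of 0.144% of the bodies of the relatives, whose median GC content was 41.9%, against 0.0465% over all protein-coding genes. KDM3B regions lay at 14 of the 21 in control cells and at 9 in depleted cells, where 61.4% and 39.5% of protein-coding genes had one.

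Septins held the highest values among the relatives. SEPTIN5, a septin tied to vesicle release, had 18000 new bases in its locus and 35.0% of its 9722 bp body newly covered, and its body had 66.5% GC. SEPTIN12, a septin of the sperm tail, had 5800 new bases in its locus, SEPTIN3, a neuronal septin, had 4800, and SEPTIN4 had 4300. The GC content of the last 3 was 53.3%, 52.3% and 52.0% of the body. SEPTIN2, SEPTIN7 and SEPTIN14 had 0 new bases in their loci. KCNT2, the closest relative of KCNT1, had 400 new bases in a body of 383447 bp with 33.9% GC. KIF1B, another motor of the KIF1 group, had 300 in its locus, and MCF2 had 100. The 4 relatives with the most new bases thus all had bodies richer in GC than the median relative, as a description over a few genes.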

How the data were processed

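ChIP-seq libraries of KDM3B and H3K9me2 from HCT116/Scrsh and HCT116/ABsh-1 cells were analysed, with 1 library each. The authors mapped reads to hg19 with Bowtie, per the submitters' processing notes, kept uniquely placed reads, let each position count once, and called windows of 100 bp in which ChIP exceeded input by the Poisson distribution. For every ChIP library 1 list was deposited, with region positions and a score, a whole number of at least 2 whose meaning is not given in the sources used here. Here it served to rank regions of the same list and nothing else. All regions lay on a 100-bp grid at least 300 bp apart, so nearer windows had been joined. The 2 input libraries were not analysed here, and depth is unknown.

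Covered bases were counted over GENCODE release 44 genes in the hg19 version, and GC content came from the GRCh37 sequence. Bases were new where covered in HCT116/ABsh-1 and not in HCT116/Scrsh. Exons were those of all transcripts, coding bases going first, then untranslated and other exons. Among 20144 protein-coding genes on chromosomes 1 to 22, X and Y, values were ranked by covered bases of the body. Shares of windows carry Wilson 95% intervals. The genome copy is not masked, so repeats were counted only as 12-letter words that recur within 500 bp. The cover counts were tested on simulated data with known answers. Python 3.11.15 with numpy 2.4.6, scipy 1.17.1 and matplotlib 3.10.9 was used.

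The members, the relatives and the comparisons were chosen with earlier results of these data known. Of the 5 genes that the rule takes, 1 is not reported here. The genes named are the 4 members, every protein-coding gene reaching into their flanks, and relatives from a fixed list, with values for the 4 that had the most new bases. The other relatives named, TBCD, the joining distance, the windows of like GC and the distance to chromosome ends were chosen after values were seen. As alternatives, results were recomputed with the top 50% by score, with equal numbers of regions per antibody, with regions joined or those of 1 window left out, and with other flanks, other sets of exons and TSSs, larger windows and all annotated genes.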

Additional observations from a re-analysis of the deposited data

How the results depend on the processing

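With 1 library per condition no library could be left out, and no value here has replicate error. No paired analysis was possible because each condition had 1 library. The share of the 4 loci newly covered by H3K9me2 was 24.0%. It became 22.4% with the 50% of regions with the highest scores, 15.3% with equal numbers of regions per antibody, 40.8% with regions under 1 kb apart joined, 22.8% without regions of 1 window, 26.1% over the gene body alone and 26.0% with 5 kb on either side. Exon cover exceeded intron cover by 15.2 percentage points, by 23.7 with exons of the canonical transcript alone and by 30.7 with coding exons alone. In both alternatives every other base of the body, also before the canonical TSS, counted as intron. H3K9me2 covered 32.3% of the TSS windows in HCT116/ABsh-1, 38.4% within 1 kb, 36.4% within 2 kb and 22.6% with equal numbers of regions. KDM3B of HCT116/Scrsh covered 0.622% of the TSS windows and 1.12% within 1 kb. KDM3B regions at the loci numbered 15 in control and 6 in depleted cells, 9 and 3 among the top 50% by score, and 7 and 6 with equal numbers of regions, under which the populations hardly differed. Covered windows had 9.38 percentage points more GC, and 8.57 with windows of 500 bp. The median percentile of the 4 genes by new bases was 99.9 among protein-coding genes, 96.3 by share of the body and 99.96 among all annotated genes. No value changed direction under the alternatives run, none of which left the introns before the canonical TSS out of the exon comparison. The score grows with width, so the choice by score mostly keeps wide regions. The cause of these shifts was not tested.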

Other observations

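All 4 genes lie in the outer part of their chromosomes. The gene end nearest to a chromosome end lies 1.42 Mb from it at MCF2L, 1.44 Mb at KIF1A, 2.53 Mb at KCNT1 and 5.70 Mb at SEPTIN9. Of all protein-coding genes, 13.6% lie as near to a chromosome end as SEPTIN9. This distance was looked at after the positions of the genes were seen. Among the relatives, SEPTIN2, SEPTIN12 and KIF1C lie nearer to a chromosome end than SEPTIN9, at 0.906, 4.83 and 4.90 Mb. They had 0, 5800 and 2600 new bases in their loci. Among the genes without a protein within SEPTIN9, an antisense lncRNA of 3420 bp from 75369899 to 75373318 was covered by H3K9me2 to 62% in HCT116/ABsh-1, and the highest-scoring region shown for SEPTIN9 lies within it in part. MIR4316, a microRNA gene of 71 bp in SEPTIN9, was covered over 36 of its bases. MCF2L-AS1, antisense to MCF2L and next to its canonical TSS, had no covered base.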
